A study of Mus musculus with 4 samples.

Results

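The clustered protocadherin locus of the mouse carried 20 CTCF regions out of 29116 in the genome. These regions were chosen by position alone. CTCF peaks of all 4 libraries were merged where they overlapped by at least 1 bp, and a region was a member when its centre lay on chromosome 18 between 36900000 and 38050000 in the build mm9. Inside this window of 1.15 Mb the protocadherin alpha genes span about 37.09 to 37.35 Mb, the beta genes 37.42 to 37.67 Mb and the gamma genes 37.83 to 38.00 Mb. These spans are rounded, and the stretches before, between and behind them belong to the window as well. A region is named here by its centre in Mb, and its start and end are given where its values are described.

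Clustered protocadherins are cell adhesion proteins best known from neurons, where each cell uses its own choice of promoters from the 3 arrays. CTCF binds many of the variable promoters of the arrays and also distant enhancers, and promoter choice is known to depend on looping between promoter and enhancer sites. In RefSeq (assembly GRCm38.p6, used for names and order only) the alpha array runs from Pcdha1 to Pcdhac2 with 14 genes. The beta array runs from Pcdhb1 to Pcdhb22 with 22 single genes. The gamma array runs from Pcdhga1 to Pcdhgc5 with 22 genes, 21 of them protein coding. Slc25a2, a mitochondrial carrier gene, and Taf7, which encodes a subunit of the general transcription factor TFIID, stand between the beta and gamma arrays. Diaph1, which encodes an actin-nucleating formin, follows the gamma array.

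CTCF was precipitated with a commercial antibody from WEHI-231, a B cell lymphoma line of (BALB/c x NZB)F1 origin, and the recovered DNA was sequenced. Of the 4 libraries 2 came from control cells and 2 from cells of the same line with a stable shRNA knockdown of TFII-I, the transcription factor encoded by Gtf2i. The series title asks whether TFII-I brings CTCF to promoters. The labels do not say whether the knockdown cells are 1 clone, nor that replicates were grown separately, so their spread may be technical only. The knockdown level and the expression of B cell markers or protocadherins were not analysed here. The control lists (replicates 1 and 2, an order kept for all pairs of values) held 24467 and 23873 peaks, the knockdown lists held 19076 and 15309, and sequencing depth is unknown.

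Peaks in the locus were fewer in both knockdown libraries. Control replicates 1 and 2 had 18 and 15 peaks in the window, a mean of 16.5 ± 2.12 (SD, n = 2). Knockdown replicates 1 and 2 had 11 and 9, a mean of 10 ± 1.41 (SD, n = 2). The groups did not overlap. The knockdown mean came to 60.6% of that of the controls, against 71.1% for the whole lists. The two-sided exact permutation test gave p = 0.333, the smallest value that 2 libraries against 2 allow. Per 1000 peaks of a list, the locus took 0.736 and 0.628 in the control lists, with 0.577 and 0.588 in the knockdown lists. Whole knockdown lists also had lower scores, with medians of 85.5 and 79.1 against control medians of 111 and 107. When every list was limited to its 15309 highest scores the direction turned, with means of 8 control and 9 knockdown peaks in the window.

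Of the 20 regions 7 (35.0%) were called in all 4 libraries, against 40.3% of all regions. Both controls had a call in 13 (65.0%), against 71.4% of all regions and 69.6% in the rest of chromosome 18. Of these 13, the 7 regions just counted (53.8%) were also called in both knockdown libraries, against 56.5% of all regions called in both controls. Another 5 were called in 1 knockdown library, where the share over the genome was 28.7%. A single region (7.69%) was called in both controls and in neither knockdown library, against 14.8% of such regions in the genome and 12.6% in the rest of chromosome 18. No region was called in both knockdown libraries without a control call, a class that took 1.14% of the genome's regions called in both knockdown libraries. These counts differ from the background by a few regions at most.

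All 20 regions had a call in at least 1 control. No member was called in knockdown libraries alone, which held for 5.84% of all regions. In the locus 7 regions were called in control libraries alone, against 25.2% over the genome. A call in 1 library only was made for 6 regions (30.0%, against 20.0% of all regions). Each of these 6 calls came from a control library, 4 from replicate 1 and 2 from replicate 2. The control lists were the longer ones. Over all regions, calls in control libraries alone (25.2%) also outnumbered calls in knockdown libraries alone (5.84%), so nothing is read from this split. The remaining member had a call in control replicate 1 and in knockdown replicate 1.

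**Figure D1:**
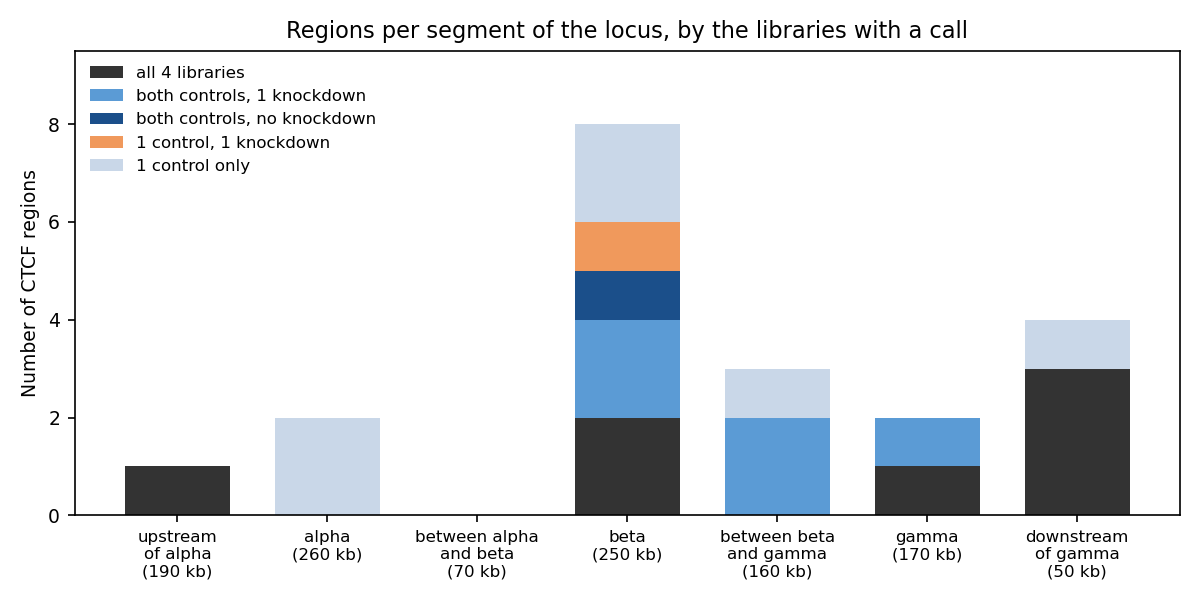
Stacked bars give the number of CTCF regions in each segment of the window, in order along the chromosome with the segment's length in kb, coloured by the libraries that had a call. The beta span held 8 of the 20 regions, the alpha span held 2 that were called in 1 control only, and the stretch between alpha and beta held 0.

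The beta array carried more regions than the alpha and gamma arrays. The alpha span of 260 kb held 2 regions, or 0.769 per 100 kb, and neither was called in more than 1 library. The beta span of 250 kb held 8 regions, or 3.20 per 100 kb, of which 5 were called in both controls. The gamma span of 170 kb held 2 regions, or 1.18 per 100 kb, and both were called in both controls. For comparison, the genome carried 1.10 regions per 100 kb and the rest of chromosome 18 carried 0.890. Just behind the gamma span, the last 50 kb of the window held 4 regions. Set beside the RefSeq gene numbers, regions called in both controls inside the rounded spans numbered 0 for 14 alpha genes, 5 for 22 beta genes and 2 for 22 gamma genes. No mm9 gene positions were used, so no region is assigned to a promoter.

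In the alpha array CTCF was called in control replicate 1 alone. The 37.113-Mb region (37112728 to 37113050) had a score of 74.3, which is the 23.7th percentile of that list, where 100 is the highest score. The 37.128-Mb region (37127685 to 37127975) had a score of 71.6, at the 21.4th percentile. The score is the authors' own value per peak and starts at 50, so both calls stood low in the list. The nearest peak of any of the other 3 libraries lay at least 149733 bp away from either. The whole alpha span lay in a gap of 497.8 kb, from the 36.963-Mb to the 37.46-Mb region, in which no CTCF region was called in both controls. Gaps at least that long made up 4.49% of the gaps between such regions in the genome, a share from which nothing is read, since this gap was picked as the longest of 12 in the locus.

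Before the alpha array, CTCF was called in every library at the 36.963-Mb region (36962359 to 36963025). Control scores were 151 and 134, and knockdown scores were 96.3 and 115. The corresponding percentile ranks were 71.8 and 66.2 against 61.1 and 81.3. The knockdown ranks enclosed the control ranks, so the groups overlapped. The nearest region outside the window on that side (36899362 to 36899971) had its centre 333.5 bp before the start and was also called in all 4 libraries.

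In the beta array, most calls lay towards the distal end. The first 2 regions lay 6.62 kb apart and stood low in control replicate 1. The 37.46-Mb region (37460203 to 37460752) had scores of 55.1 and 78.1 in the controls and 95.8 in knockdown replicate 1, with no call in knockdown replicate 2. Its percentile ranks were 5.57 and 27.8 in the controls and 60.6 in knockdown replicate 1, which put it higher in that knockdown list than in either control list. The 37.467-Mb region (37466854 to 37467333) scored 54.5 and 50.8 in the controls, at percentiles 4.86 and 0.825. This was the only member called in both controls and in neither knockdown library. Its scores stood at the lower edge of the lists, and the distance to the nearest knockdown peak was 6310 bp for replicate 1 and 139644 bp for replicate 2.

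After a gap of 104 kb the 37.571-Mb region (37571137 to 37571581) followed. It scored 76.5 and 69.8 in the controls and 55.9 in knockdown replicate 1, and knockdown replicate 2 had no call. The 37.607-Mb region (37606944 to 37607491) was called in every library, with control scores of 107 and 62.6 and knockdown scores of 114 and 61.2. Replicate 1 was high and replicate 2 was low in both groups at this region, and the percentile ranks of 47.6 and 14.1 against 74.5 and 20.8 overlapped.

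Inside the rounded beta span, the 37.645-Mb region (37644306 to 37644902) had the highest mean control rank, 51.9. It scored 115 and 109 in the controls, 126 in knockdown replicate 1 and 78.5 in knockdown replicate 2. Its ranks were 52.7 and 51.2 in the controls, which lay close together, and 81.6 and 49.3 in the knockdown libraries, which lay on either side of them. Only 4.44 kb further, the 37.649-Mb region (37648842 to 37649246) was called in replicate 1 of both groups, with scores of 85.0 in the control and 105 in the knockdown. The 37.637-Mb region (37637206 to 37637670) had a call in control replicate 1 alone, with a score of 83.2. The 37.664-Mb region (37663734 to 37664007) had one in control replicate 2 alone, with a score of 61.4. Over the 5 regions inside the rounded beta span called in both controls the median of the mean control rank was 23.0, against 55.8 for all regions called in both controls. The 37.678-Mb region, just behind the limit of that span, had a mean control rank of 76.4 and is not among them.

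Directly behind the rounded limit of the beta span lay a pair of regions 4.71 kb apart that were each called in both controls and in a different knockdown library. The 37.673-Mb region (37672980 to 37673383) scored 86.6 and 69.1 in the controls and 84.1 in knockdown replicate 1. The 37.678-Mb region (37677655 to 37678138) scored 167 and 152 in the controls and 68.2 in knockdown replicate 2. Its ranks of 78.1 and 74.8 in the controls dropped to 33.3 in knockdown replicate 2, and knockdown replicate 1 had no peak within 4312 bp. Further on, the 37.73-Mb region (37730154 to 37730629) was called in control replicate 2 alone with a score of 58.0.

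**Figure D2:**
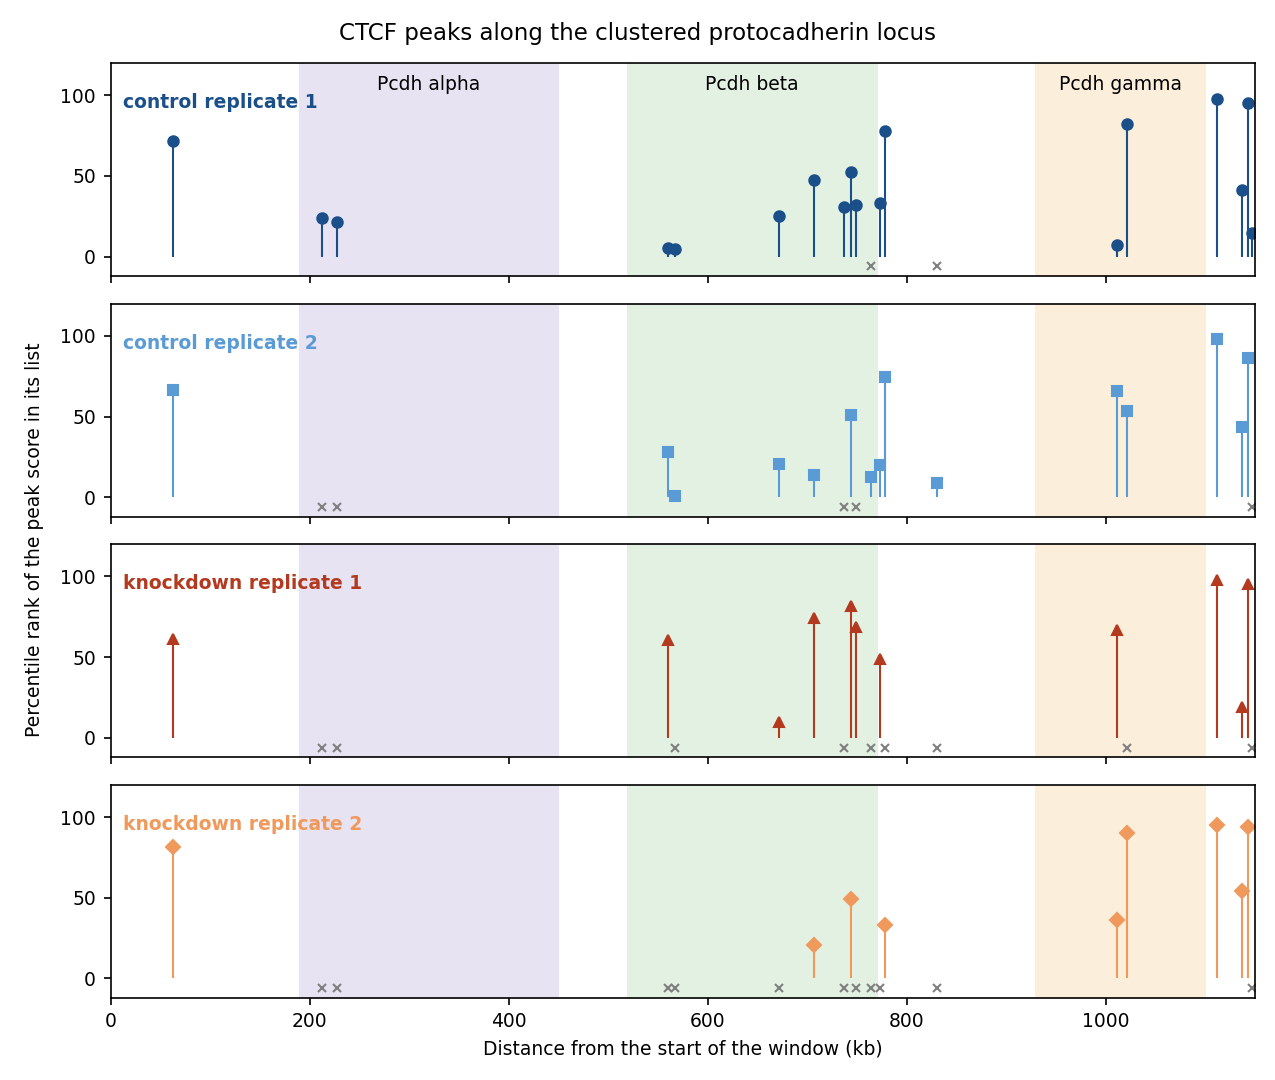
Each panel shows 1 library, the horizontal axis gives the distance in kb from the start of the window, and the height of a stem gives the percentile rank of the peak's score in its own list. Shaded spans mark the alpha, beta and gamma arrays, and grey crosses mark members without a call. The alpha span holds peaks only in control replicate 1, and the peaks near 1112 and 1143 kb stand above the 86th percentile in every library.

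The gamma array carried 2 regions 10.1 kb apart. At the 37.911-Mb region (37910878 to 37911416) the controls disagreed, with scores of 56.5 and 134 and ranks of 6.93 and 65.9. The knockdown libraries scored 103 and 70.2 there, at ranks of 66.8 and 36.5, and the groups overlapped. The 37.921-Mb region (37920913 to 37921496) scored 180 and 113 in the controls and 138 in knockdown replicate 2, at ranks of 82.3, 53.5 and 90.1. Knockdown replicate 1 had no peak within 9647 bp of it.

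The highest scores of the locus lay behind the gamma array. The 38.012-Mb region (38011709 to 38012397) had control scores of 302 and 332 and knockdown scores of 230 and 163. Its ranks were 97.5 and 98.2 against 97.8 and 94.9, so it stood near the top of every list. Its centre lay 90.8 kb behind that of the last gamma region. The 38.043-Mb region (38042877 to 38043754) had control scores of 258 and 187 and knockdown scores of 186 and 157, at ranks of 95.5, 86.5, 95.6 and 93.9. Between them the 38.037-Mb region (38036831 to 38037490) had control scores of 98.0 and 98.8 and knockdown scores of 61.4 and 81.9. Its scores were lower in both knockdown libraries, but its ranks of 41.6 and 43.8 against 19.1 and 54.1 overlapped. The 38.047-Mb region (38046661 to 38046970) had a score of 64.2 in control replicate 1 and no other call. The next region beyond the window (38067637 to 38068236), 17936.5 bp past its end, was called in all 4 libraries.

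**Figure D3:**
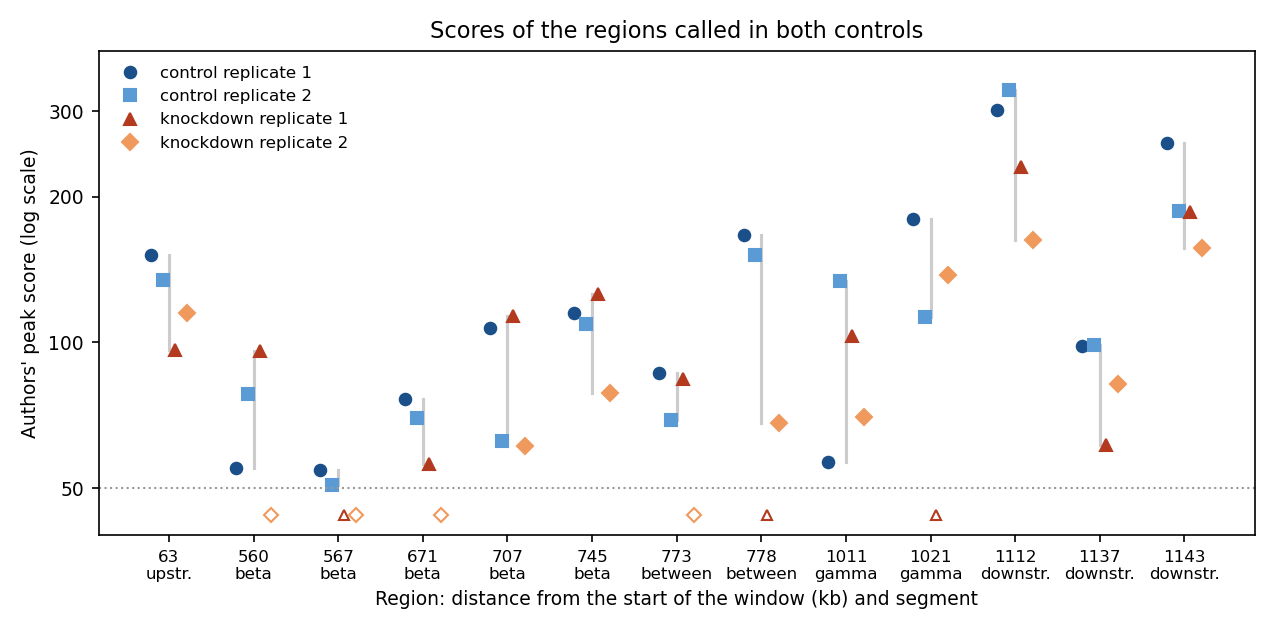
Points give the authors' score on a log axis for each of the 13 regions called in both controls, with a colour and shape per library, a grey line over the range, and open symbols under the dotted line at 50 for a library without a call. The horizontal axis gives the distance from the start of the window in kb and the segment. Knockdown replicate 2 lacks 4 of these regions and knockdown replicate 1 lacks 3, with 1 in common.

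The knockdown libraries lacked 1 region in common, and their other missing calls fell on different regions. Of the 13 regions called in both controls, 10 (76.9%) were called in knockdown replicate 1 and 9 (69.2%) in replicate 2, against 77.6% and 64.1% over the genome. Replicate 2 lacked the 37.46-, 37.467-, 37.571- and 37.673-Mb regions, which all stood in the lowest 2 of 10 equal groups of control rank. In these lowest groups, replicate 2 had a call in 29.1% and 38.8% of all regions. Replicate 1 lacked the 37.467-Mb region and also the 37.678- and 37.921-Mb regions. The latter pair stood in groups 8 and 7 of control rank, in which replicate 1 had a call in 94.6% and 90.2% of all regions. Both of these had a peak in replicate 2.

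Ranks in the regions called in all 4 libraries did not separate the groups. In none of these 7 regions did both knockdown ranks lie above both control ranks, which was the case in 11.1% of all such regions. In none did both lie below, which was the case in 28.9%. The median difference, knockdown minus control, was 3.76 percentile points over the 7 regions, against -7.26 over the 11741 such regions of the genome and -3.05 in the rest of chromosome 18. All these ranks were taken within whole lists, which differ in length. With ranks among regions called in all 4 libraries only, the medians were 13.4 points in the locus and -0.0234 over the genome. How far list length shapes the values was not tested. Within whole lists, the largest rises in mean rank were 16.8 points at the 37.607-Mb region and 15.2 points at the 37.911-Mb region. The lowest values were -6.10 points at the 38.037-Mb region and -1.49 points at the 38.012-Mb region.

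The spread between replicates was as wide as these differences. Control ranks differed by a median of 5.55 points within the pair and by up to 59.0 points, and knockdown ranks by a median of 30.4 points and up to 53.6. Without control replicate 2 the median difference was -0.542 points, and without knockdown replicate 1 it was 0.0654, so the sign and size of this median rest on single libraries. The genome medians in the same settings were -8.03 and -7.39 points, below those of the locus. Control ranks in the locus were lower than over the genome. The median of the mean control rank was 51.9 over the 7 regions and 68.5 over the genome. The median difference was 6.41 points for the 2763 regions of the genome with a mean control rank of up to 50 and -11.1 points for the 8978 above it. In the locus these medians were 15.2 points over 3 regions and 3.00 points over 4, both above those of the genome. Control rank is itself a term of the difference, and its part in the locus median was not tested.

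Peak centres and widths were compared in the 7 regions called in all 4 libraries. The peak centres of the libraries lay within 18 to 145.5 bp of each other there, with a median of 76 bp, against 99.5 bp over the genome. Joining peaks into a region required overlap, so close centres follow in part from that rule. In all 7 regions the peak of knockdown replicate 1 was narrower than both control peaks, as in 86.0% of such regions in the genome. Median widths of the whole lists were 483 and 507 bp in the controls and 328 and 446 bp in the knockdown libraries. At the 38.012-Mb region, the control peaks were 574 and 581 bp wide and the knockdown peaks 422 and 665 bp. Knockdown replicate 2 was wider than both controls in 3 of the 7 regions, against 18.7% over the genome. It was narrower than both in another 3 (42.9%), against 54.2% over the genome.

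The regions of the locus were unevenly spaced. The distance between neighbouring centres ran from 3.50 to 332.6 kb with a median of 14.9 kb, against 29.3 kb over the genome and 37.3 kb in the rest of chromosome 18. Of the 19 distances, 7 (36.8%) were under 10 kb, against 24.3% over the genome. Within the beta span the median of 7 distances was 14.8 kb. Counting only regions called in both controls, the median in the locus rose to 32.2 kb, with 40.1 kb over the genome. The median within the beta span then rose to 36.6 kb over 4 distances.

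The tightest group ran over the distal limit of the beta span, with 5 of its 7 regions inside the span. From the 37.607-Mb to the 37.678-Mb region, 7 regions in a row spanned 70.7 kb, while the median span of 7 consecutive regions in the genome was 276.5 kb. Of these 7, the 37.637-, 37.649- and 37.664-Mb regions were not called in both controls. Runs at least as tight made up 2.80% of the 28989 runs in the genome. This run was picked as the shortest in the locus after its values were seen. The longest stretch without any call, 332.6 kb, lay between the 37.128-Mb and 37.46-Mb regions, from within the alpha array into the beta array. Gaps at least as long made up 4.81% of all gaps in the genome, but this one was picked as the longest of the 19 in the locus, so nothing is read from that share. The window as a whole held 20 regions, where windows of 1.15 Mb tiling the chromosomes had a median of 9, and 21.5% of 2284 windows held more. For regions called in both controls it held 13, where the median was 7 and 24.9% of the windows held more.

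**Figure D4:**
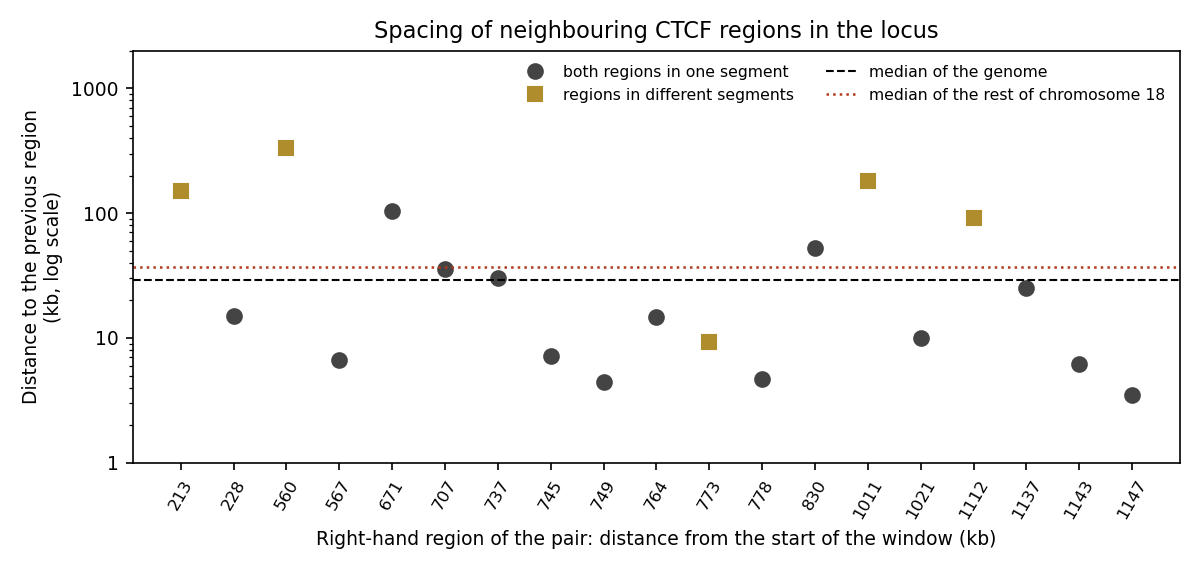
Each point gives the distance in kb, on a log axis, from a region to the region before it. Circles stand for pairs in the same segment and squares for pairs in different segments, the dashed line for the genome's median of 29.3 kb and the dotted line for the 37.3 kb of the rest of chromosome 18. Distances lie between 3.50 and 332.6 kb, and 4 of the distances between segments exceed 90 kb.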

How the data were processed

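CTCF ChIP-seq peak lists of 4 WEHI-231 libraries were used, 2 of control and 2 of TFII-I knockdown cells. Per the submitters' processing notes, BWA, HOMER and mm9 were used, with no version or role; MACS appears in the deposited peak names. The caller's version and settings, and whether an input was used, are not given in the sources. Each library has its own list, read as called per sample. The only value per peak is the deposited score, read from its range as -10 times log10 of a Poisson p; it grows with tag number, so scores were ranked within a list (percentile, 100 highest). Coordinates are those of the lists.

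Peaks sharing 1 bp or more were joined across lists with python 3.11.15, numpy 2.4.6 and pandas 2.3.3; plots used matplotlib 3.10.9. The highest score of a library in a region was taken. Library numbers were compared by an exact permutation test; all other comparisons are descriptions beside the genome. Merging was tested on copies of the control replicate 1 list, slightly shifted and with some peaks removed from the knockdown copies. These copies differ less from each other than the real lists do. The members, lists and tests were chosen with earlier results of these data known. Regions are named by the highest mean control rank in each segment, by calls in 1 group only and by the largest rank differences; the remaining members were added to account for all 20. Alternatives were stricter scores, equal list lengths, other merging and overlap, other limits, other rank scales, a replicate block and leaving out each library.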

Additional observations from a re-analysis of the deposited data

How the results depend on the processing

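With every list limited to 15309 peaks, the knockdown mean of locus peaks was 112.5% of that of the controls, and the locus held 12 regions, 7 called in both controls, 4 in all libraries and 0 in both controls only. With a score of at least 100 it held 9 regions, 6 called in both controls and 2 in all libraries, and the region called in both controls only was then the 37.678-Mb one. Both settings use fewer peaks by construction. Leaving out 1 library in turn gave 54.5% to 66.7% for the peak number and, as fewer calls are then required, 3 to 5 regions called in the controls only. The median rank difference ran from -0.542 (without control replicate 2) to 5.01 points (without control replicate 1). It was 13.4 points with ranks among regions called in all libraries (genome -0.0234) and -1.49 points with missing knockdown calls at rank 0 (genome -16.1); the cause was not tested. Median spacing was 32.2 kb for regions called in both controls and 69.1 kb for those called in all libraries, by construction. Merging within 500 bp, 50% reciprocal overlap and any overlap with the window changed no count of regions. With a replicate block the exact sign-flip test of peak number gave p = 0.5, the smallest possible. The knockdown mean was 60.6% of that of the controls, as without the block. Over 11741 regions called in all libraries, rank deviations of replicate 1 from the group mean correlated at r = 0.0126 between the groups. This value cannot show whether same-numbered libraries were prepared together.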
